A study of Mus musculus with 18 samples.

Results

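The 10 genes described here encode enzymes of glycolysis: the hexokinases Hk1 and Hk2, the phosphofructokinases Pfkl, Pfkm and Pfkp, aldolase A (Aldoa), enolase 1 (Eno1), the pyruvate kinases Pklr and Pkm, and lactate dehydrogenase A (Ldha). They were taken by symbol from a deposited table of read counts for 21967 genes. All 10 were found, and all 10 passed the filter on low counts in each of the 11 comparisons made. Bulk RNA-seq had been made from progenitors of the red cell lineage sorted from mouse bone marrow, the PreCFU-E and the later CFU-E (colony-forming unit erythroid) that they give rise to. In each of 3 genotypes, 3 mice gave both cell types, so there were 18 libraries in 6 groups, and the mice are named A, B and C. Lepr-Cre mice carried a null and a floxed allele of Scf (stem cell factor, the ligand of the KIT receptor) together with Lepr-Cre. KO/FL mice carried a null and a floxed Scf allele without Cre, and FL/FL mice carried floxed alleles on both chromosomes. Every mouse thus had a floxed Scf allele, and no group held mice with unmodified Scf. Lepr-Cre acts in stromal cells of the marrow that express the leptin receptor, so the change made by Cre is in the cells around the sorted progenitors. Lepr-Cre and FL/FL mice differ both in the null allele and in Lepr-Cre, while Lepr-Cre and KO/FL mice differ in Lepr-Cre. Mouse B of each genotype was female, and mice A and C were male. Strain and age were not given in the sources used here.

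Glycolysis turns glucose into pyruvate and yields ATP without oxygen. Hexokinase, phosphofructokinase and pyruvate kinase catalyse its practically irreversible steps, and each exists as several isozymes from different genes that differ in regulation and in tissue. Mature red cells have no mitochondria and depend on glycolysis, and in humans inherited defects of the PKLR, HK1 or PFKM genes can cause anaemia. Pklr encodes the pyruvate kinase of red cells and liver. Pkm encodes the PKM1 and PKM2 splice forms, and PKM2 is known from many dividing cells.

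Total counts were 3541066 to 9389122 per library, and 3 counts corresponded to 0.320 to 0.847 CPM (counts-per-million units) depending on the library. The counts of replicate libraries differed by more than sampling noise (chi-square per degree of freedom 7.75 to 18.9). The Lepr-Cre CFU-E library of mouse B had the fewest detected genes (10782, against up to 13536 in the others). Summed erythroid identity markers were at 5532 to 6239 CPM in CFU-E and 4990.2 to 5680 CPM in PreCFU-E, and none of these 8 genes was at 0 in any library. Of the 9 neutrophil and monocyte markers, 5 to 8 were at 0 in a CFU-E library and 4 to 8 in a PreCFU-E library, among them Elane, Ctsg and Ly6c2 in all 18. Late erythroblast markers, 8 genes with the globins among them, summed to 120.5 to 217 CPM in CFU-E and 6.33 to 46.2 CPM in PreCFU-E. The 6 stroma and endothelium markers summed to 0.704 to 5.90 CPM in CFU-E and 9.39 to 17.7 CPM in PreCFU-E, with Pecam1 at 9.12 to 17.5 CPM in PreCFU-E. Megakaryocyte markers summed to 29.9 to 52.9 CPM in CFU-E and 24.2 to 40.2 CPM in PreCFU-E, with Ppbp at 0 in all 18 libraries. Among them Vwf was at 27.1 to 47.0 CPM in CFU-E and 18.4 to 27.7 CPM in PreCFU-E. Itga2b went the other way, at 0.450 to 4.30 CPM in CFU-E and 3.81 to 11.9 CPM in PreCFU-E. Mast cell, basophil and eosinophil markers reached at most 5.02 CPM in CFU-E and 3.27 CPM in PreCFU-E, B, T and NK cell markers 10.98 CPM in CFU-E and 7.43 CPM in PreCFU-E, and neutrophil and monocyte markers 2.60 CPM in CFU-E and 5.05 CPM in PreCFU-E. The part of these differences in the results below was not tested. In bulk libraries, fewer cells that express a gene and less RNA per cell cannot be told apart.

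The dominant isozyme of each family was the same in all 18 libraries: Pklr among the pyruvate kinases, Hk1 among the hexokinases and Pfkm among the phosphofructokinases. Levels of different genes are compared here as CPM per kilobase of annotated exon. Medians over the 9 CFU-E libraries were 158 for Ldha, 156 for Pklr, 92.3 for Hk1, 74.2 for Pfkm, 65.1 for Aldoa, 17.1 for Pfkl and 9.86 for Eno1. Hk2 at 1.36, Pfkp at 1.11 and Pkm at 0.158 CPM per kb came last, and the ranges of these 3 genes overlapped. In PreCFU-E the same order of medians held except that Aldoa (77.3) stood above Pfkm (54.2). The other PreCFU-E medians were 174 for Ldha, 111 for Pklr, 109 for Hk1, 19.1 for Pfkl, 13.5 for Eno1, 5.69 for Hk2, 3.20 for Pfkp and 1.88 for Pkm. Some neighbours in these orders overlapped, among them Ldha with Pklr and Hk1 with Pfkm in CFU-E, and Pklr with Hk1 and Pfkl with Eno1 in PreCFU-E. Others were apart, such as Pfkl and Eno1 in CFU-E (15.4 to 20.04 against 7.82 to 12.7 CPM per kb). So were Pklr and Hk1 in CFU-E (142 to 165 against 86.4 to 119) and Ldha and Pklr in PreCFU-E (162 to 211 against 99.4 to 135). Some levels have an added limit, that of Eno1 most: 72.2% of the 50-base stretches of its longest annotated transcript also occur in other genes, Eno1b among them. The share of such stretches was 34.4% for Pkm, 23.2% for Pklr, 16.6% for Ldha and 13.5% for Aldoa. How the counting treated such reads was not given in the sources used here.

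**Figure D1:**
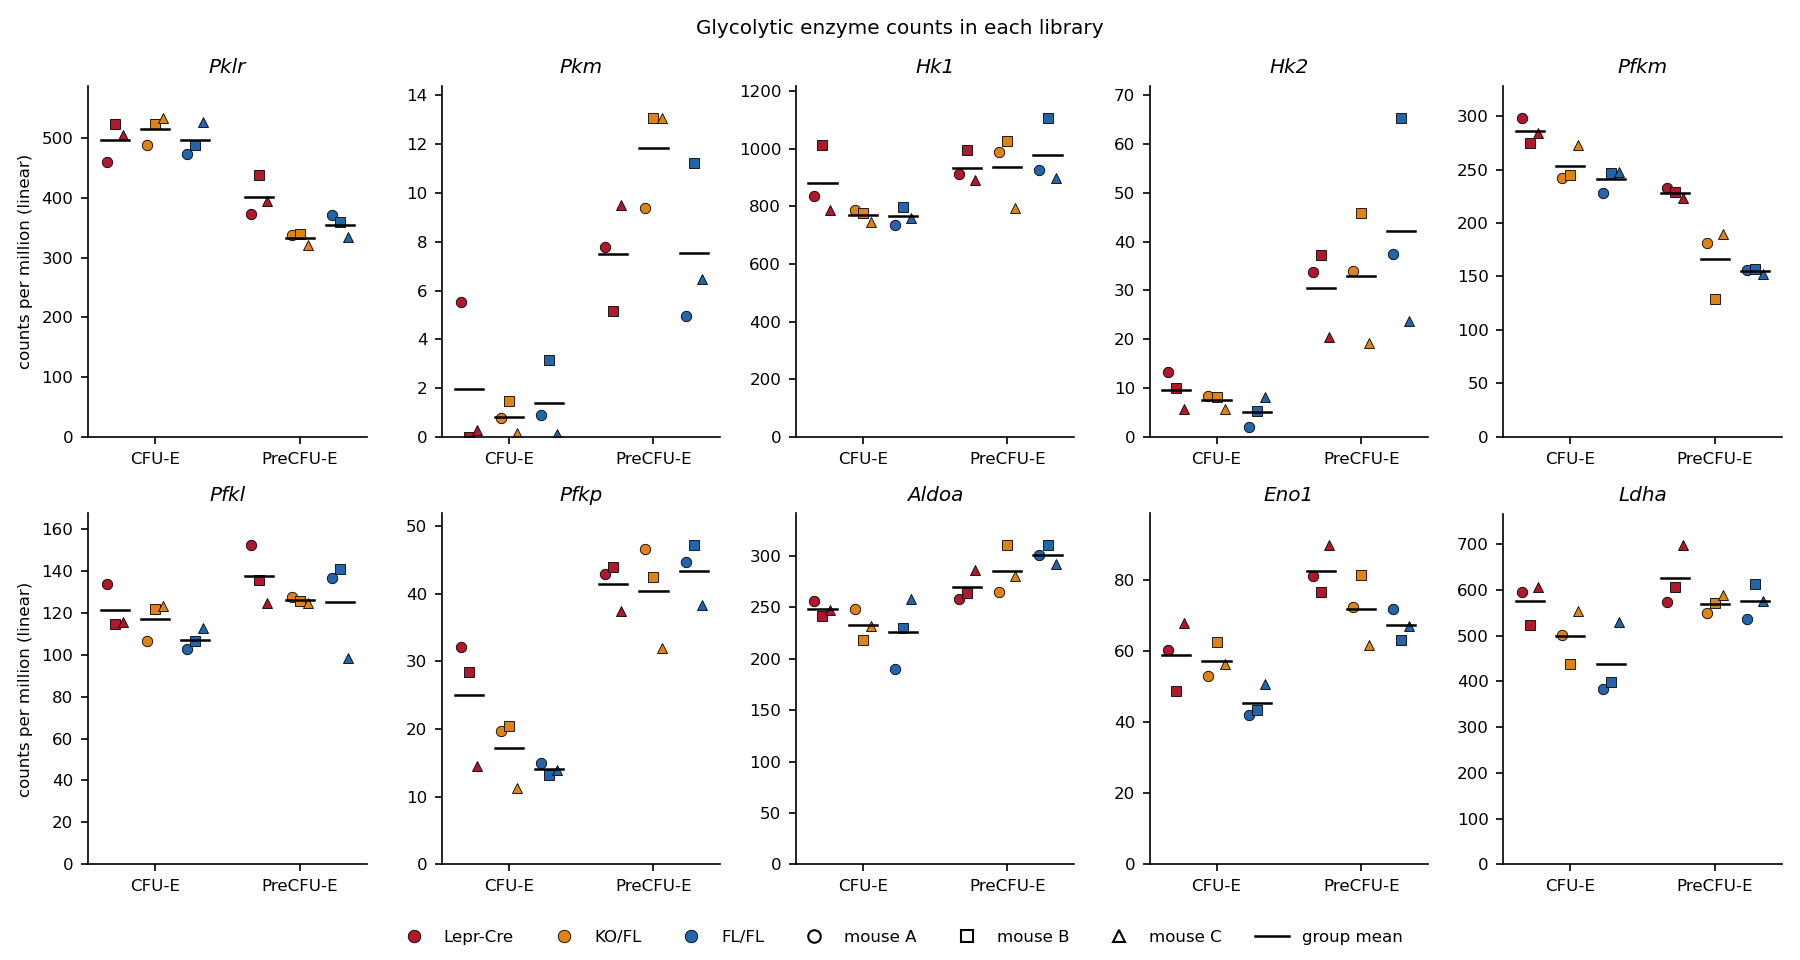
CPM of the 10 enzyme genes in each of the 18 libraries (linear axes from 0), with CFU-E at the left and PreCFU-E at the right of each panel, genotypes by colour, mice by symbol and group means as bars. All 9 CFU-E libraries lie above all 9 PreCFU-E libraries for Pklr (461 to 534 against 322 to 438) and below them for Hk2 (1.98 to 13.3 against 19.2 to 65.3).

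The step between the stages was tested within each genotype, CFU-E against PreCFU-E, with edgeR's quasi-likelihood test on counts and a Benjamini-Hochberg adjusted p under 0.05 over 10732 genes. In FL/FL mice 2 of the 10 enzyme genes were higher in CFU-E and 6 were lower, where 8.99% of all tested genes were called higher and 9.3% lower. In KO/FL mice 2 were higher and 3 lower, beside 6.89% and 7.18% of all genes. In Lepr-Cre mice 1 was higher and 2 were lower, beside 3% and 4.25% of all genes. With the mouse as a block, which uses the pairing of both cell types from each animal, the Lepr-Cre counts were 2 higher and 4 lower, beside 5.45% and 6.88% of all genes. Without FL/FL CFU-E A the FL/FL counts were 2 higher and 3 lower, beside 7.45% and 7.47% of all genes. In Lepr-Cre mice 0 genes were called without PreCFU-E A or CFU-E B, and 1 without PreCFU-E B, PreCFU-E C or CFU-E C. In these 5 fits 473 to 583 of all tested genes were called. The median log2 fold change of the 10 genes was -0.15 for Lepr-Cre, -0.29 for KO/FL and -0.40 for FL/FL mice, while over all tested genes it was -0.01 for Lepr-Cre, 0.00 for KO/FL and 0.01 for FL/FL mice. Pklr and Pfkm were the genes above 0 in each genotype, and both were higher in CFU-E in 9 of 9 mice. Pkm, Hk2, Pfkp, Aldoa and Eno1 were lower in 9 of 9 mice, and Hk1, Pfkl and Ldha in 8 of 9.

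**Figure D2:**
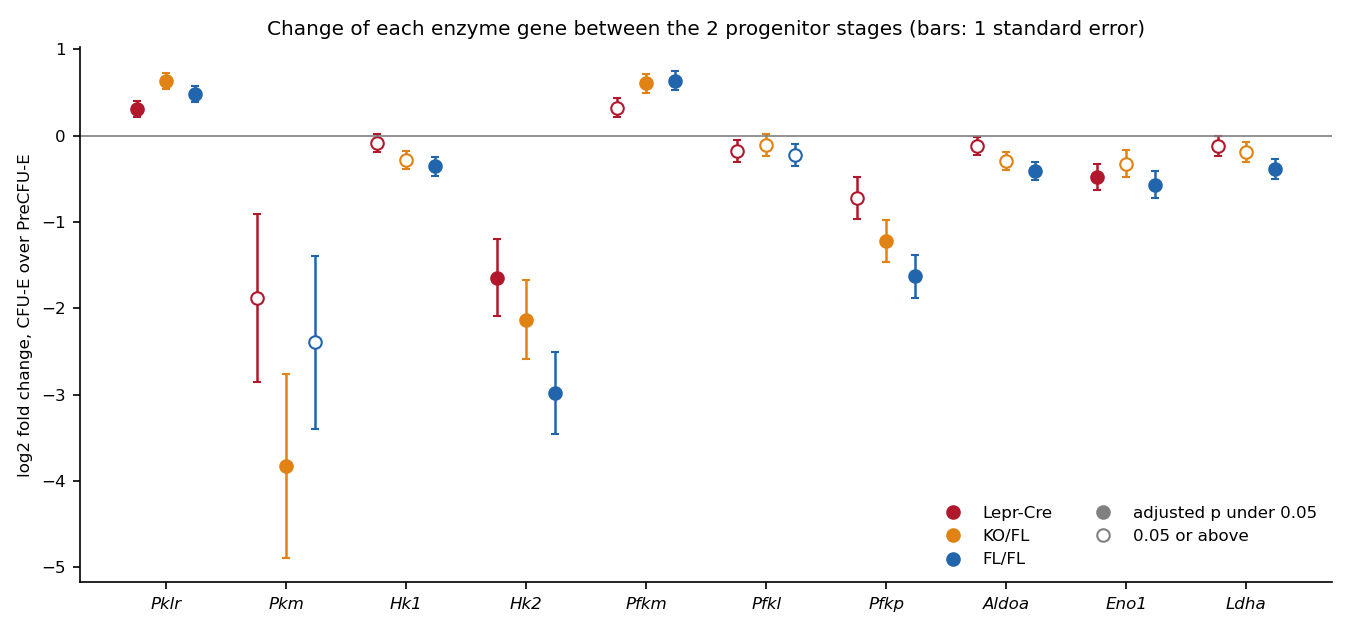
Log2 fold change of CFU-E over PreCFU-E for the 10 enzyme genes in Lepr-Cre, KO/FL and FL/FL mice, with bars of 1 standard error. Filled points passed an edgeR adjusted p of 0.05. Pklr and Pfkm lie above 0 in all 3 genotypes, and Hk2 lies furthest below 0 in FL/FL mice (-2.98).

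Pyruvate kinase makes the pyruvate at the end of glycolysis. Pklr lies at chr3:89136142-89146784 on the plus strand and Pkm at chr9:59656368-59679375 on the plus strand (GRCm38, GENCODE M21). Pklr has an upstream start used for the red cell form (R) and a downstream start used for the liver form (L), and counts per gene do not separate them, nor do they separate PKM1 from PKM2. The 300 bases around these starts are shown since these genes changed in opposite directions, with the upstream and downstream start of Pklr and the upstream start of Pkm, from RefSeq's promoter table (GRCm38.p6). Capitals mark GATA words (AGATAA, the same with G as its last letter, and both with T as their first letter), CACCC words and hypoxia-response words (ACGTG, or the same with G as its first letter), each on either strand.
Pklr upstream start, chr3:89135892-89136191 (+): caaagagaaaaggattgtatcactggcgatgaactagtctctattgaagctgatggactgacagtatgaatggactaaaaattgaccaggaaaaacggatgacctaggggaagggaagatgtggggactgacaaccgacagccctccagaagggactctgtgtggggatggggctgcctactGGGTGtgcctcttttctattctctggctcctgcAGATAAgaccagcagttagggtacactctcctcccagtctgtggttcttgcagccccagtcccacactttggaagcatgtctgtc
Pklr downstream start, chr3:89136373-89136672 (+): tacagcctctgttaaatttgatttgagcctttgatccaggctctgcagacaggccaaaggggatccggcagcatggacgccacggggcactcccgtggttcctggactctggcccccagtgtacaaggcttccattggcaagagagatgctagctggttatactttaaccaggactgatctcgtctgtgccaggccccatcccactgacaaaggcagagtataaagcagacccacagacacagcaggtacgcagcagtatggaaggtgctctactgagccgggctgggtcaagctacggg
Pkm upstream start, chr9:59656326-59656625 (+): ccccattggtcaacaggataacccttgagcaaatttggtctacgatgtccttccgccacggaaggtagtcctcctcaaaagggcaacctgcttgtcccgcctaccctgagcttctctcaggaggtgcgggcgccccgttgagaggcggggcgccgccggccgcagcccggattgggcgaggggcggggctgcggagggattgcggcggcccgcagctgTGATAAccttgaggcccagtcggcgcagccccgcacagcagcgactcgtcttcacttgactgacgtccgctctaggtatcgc
The upstream Pklr sequence holds 1 GATA word centred at -32 from the start and 1 CACCC word, read as its complement GGGTG, at -66. The downstream Pklr sequence holds none of the 3 kinds of word. The Pkm sequence holds 1 GATA word, centred at -29. RefSeq lists a second, downstream Pkm start, not shown, with 3 CACCC words, 2 hypoxia-response words and no GATA word. Which start was used was not measured. Of 32851 mouse promoter sequences of this length, 29.8% hold a GATA word, 57.5% a CACCC word and 43.8% a hypoxia-response word, so such matches are common and no binding was measured.

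Pklr rose in CFU-E in each genotype. In Lepr-Cre mice it had 461, 524 and 506 CPM in CFU-E (mice A, B and C) against 373, 438 and 395 CPM in PreCFU-E. In KO/FL mice it had 489.6, 524 and 534 CPM in CFU-E against 338, 340.4 and 322 CPM in PreCFU-E. In FL/FL mice the values were 475, 489 and 527 CPM in CFU-E and 371, 359 and 334 CPM in PreCFU-E. The lowest CFU-E library stood above the highest PreCFU-E library. The log2 fold changes were 0.31 in Lepr-Cre (SE 0.09, edgeR adjusted p = 0.0431), 0.63 in KO/FL (SE 0.09, 1.33e-05) and 0.49 in FL/FL mice (SE 0.09, 0.000311). The Lepr-Cre call was lost on leaving out PreCFU-E A or C or CFU-E B or C (edgeR adjusted p 0.133 to 0.230), without the low-count filter (0.0857) and with those 6 libraries alone (0.106). It was kept with the mouse block (0.00578, within a range of 0.00578 to 0.230 over 14 alternatives). By group mean, Pklr ran from KO/FL CFU-E (516 ± 23.3 CPM, SD, n = 3) through FL/FL CFU-E (497 ± 27.2) and Lepr-Cre CFU-E (497 ± 32.5) to Lepr-Cre PreCFU-E (402 ± 32.9), FL/FL PreCFU-E (355 ± 19.1) and KO/FL PreCFU-E (333 ± 10.3). The 3 CFU-E groups overlapped one another, as did FL/FL and KO/FL PreCFU-E. Lepr-Cre PreCFU-E stood just above FL/FL PreCFU-E, with a lowest library of 373 against a highest of 371 CPM. That difference did not pass the test between these genotypes (log2 fold change 0.18, SE 0.10, edgeR adjusted p = 0.346).

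Pkm was scarce at both stages and scarcer in CFU-E. It had 5.55, 0 and 0.292 CPM in Lepr-Cre CFU-E against 7.81, 5.15 and 9.50 CPM in Lepr-Cre PreCFU-E. In KO/FL mice it had 0.790, 1.47 and 0.143 CPM in CFU-E against 9.39, 13.1 and 13.1 CPM in PreCFU-E. In FL/FL mice it had 0.899, 3.17 and 0.118 CPM in CFU-E against 4.96, 11.2 and 6.49 CPM in PreCFU-E. Each mouse had less Pkm in CFU-E, yet the Lepr-Cre CFU-E library of mouse A (47 counts) lay above the lowest PreCFU-E libraries. The count of 0 in Lepr-Cre CFU-E B allows up to 0.441 CPM. Pkm passed the test in KO/FL mice (log2 fold change -3.83, SE 1.07, edgeR adjusted p = 0.0207). It did not pass in Lepr-Cre (-1.88, SE 0.97, 0.309) or FL/FL mice (-2.39, SE 1.01, 0.111). With the mouse block it passed in all 3: -2.98 in Lepr-Cre (adjusted p = 0.0237, over 14 alternatives 0.00151 to 0.552), -3.96 in KO/FL (0.000729, range 1.16e-06 to 0.0909) and -2.83 in FL/FL mice (0.0104, range 0.00263 to 0.281). In FL/FL mice it also passed with limma on the deposited RPKM (0.0164 to 0.0341), with those 6 libraries alone (0.0275) and without the low-count filter (0.00263), and in Lepr-Cre mice without that filter (0.0422). The unblocked values depended on single libraries. Without Lepr-Cre CFU-E A the Lepr-Cre value was -5.51 (adjusted p = 0.00151), and without FL/FL CFU-E B the FL/FL value was -4.00 (0.0418). In KO/FL the call was lost without PreCFU-E B (0.0546), CFU-E A (0.0882) or CFU-E C (0.0909). All 9 CFU-E libraries together held 103 Pkm counts, and 29 of them remained without Lepr-Cre A and FL/FL B. Of Pkm's longest annotated transcript, 34.4% of the 50-base stretches also occur in 8 other genes, with Gm6560, Gm6992 and Gm49759 most often. Of Pklr's exon bases, 21.97% overlap Hcn3. Reads from these genes could add to either count, or shared reads could be missing from it. How the counting treated such reads was not given in the sources used here.

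As a share of pyruvate kinase counts per kb, Pklr made up 99.2% to 100% in CFU-E libraries (median 99.9%) and 97.4% to 99.2% in PreCFU-E libraries (median 98.5%). Pkm therefore stood at a median of 0.104% in CFU-E and 1.53% in PreCFU-E. An exchange of the dominant pyruvate kinase, as the term isozyme switch implies, was therefore not seen between these stages: Pklr dominated in both, and the minor share of Pkm was smaller in CFU-E. The log2 ratio of Pkm to Pklr counts was lower in CFU-E in all 9 mice, by a mean of -4.16 (SD 2.01, range -6.67 to -0.79). An exact paired permutation test (sign flips, two-sided) gave p = 0.00391, the smallest 9 mice can give, and the same after adjustment over 5 ratios. The mean was -4.08 in Lepr-Cre, -4.81 in KO/FL and -3.61 in FL/FL mice, -4.12 in the 3 female and -4.19 in the 6 male mice. The smallest change was that of Lepr-Cre mouse A.

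**Figure D3:**
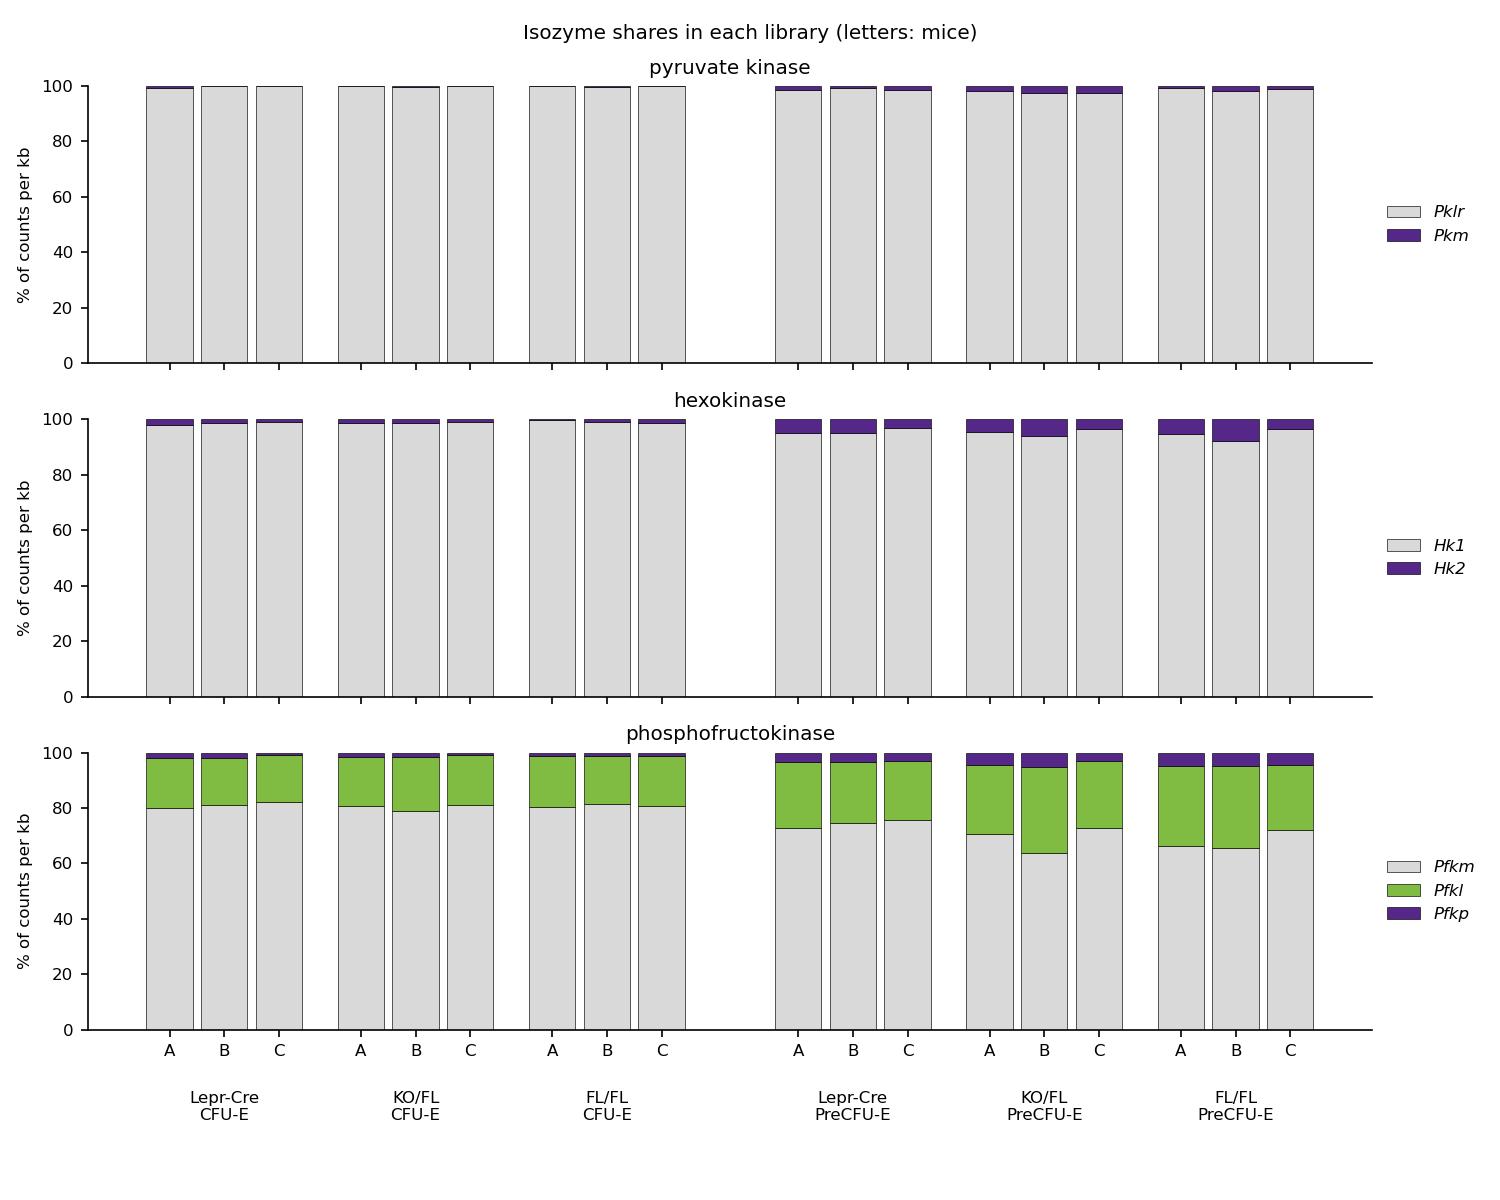
Share of each isozyme in its family's counts per kilobase (percent, bars from 0 to 100) in each library, CFU-E groups at the left and PreCFU-E groups at the right. Pklr, Hk1 and Pfkm fill most of every bar, and the minor isozymes Pkm, Hk2 and Pfkp take a smaller share in CFU-E than in PreCFU-E.

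Hexokinase traps glucose in the cell as glucose 6-phosphate. Hk1 (chr10:62268855-62379908, minus strand) is the hexokinase of red cells, and Hk2 (chr6:82725025-82774454, minus strand) is the inducible form of muscle and many dividing cells. The sequence around the Hk2 start is shown since Hk2 fell more than Hk1, with capitals as above.
Hk2 start, chr6:82774405-82774704 (-): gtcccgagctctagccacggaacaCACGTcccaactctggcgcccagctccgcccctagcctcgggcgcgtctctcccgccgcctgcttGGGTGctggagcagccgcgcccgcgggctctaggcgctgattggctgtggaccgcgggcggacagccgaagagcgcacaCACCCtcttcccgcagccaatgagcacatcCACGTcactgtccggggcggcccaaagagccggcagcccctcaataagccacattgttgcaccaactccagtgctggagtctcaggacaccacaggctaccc
It holds 2 CACCC words and 2 hypoxia-response words and no GATA word. RefSeq lists an upstream and a downstream Hk1 start, not shown. The downstream Hk1 sequence holds 5 CACCC words and 5 hypoxia-response words and no GATA word. The upstream Hk1 sequence holds none of these words. Such words were thus not particular to Hk2, and their part in the larger fall of Hk2 was not tested. Which Hk1 start was used was not measured.

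Hk2 fell in CFU-E in each genotype. It had 13.3, 10.1 and 5.70 CPM in Lepr-Cre CFU-E against 33.8, 37.2 and 20.5 CPM in Lepr-Cre PreCFU-E. In KO/FL mice the values were 8.46, 8.25 and 5.73 CPM in CFU-E and 34.0, 45.8 and 19.2 CPM in PreCFU-E. In FL/FL mice they were 1.98, 5.39 and 8.12 CPM in CFU-E and 37.4, 65.3 and 23.7 CPM in PreCFU-E. The stages did not overlap in any genotype. The log2 fold changes were -1.64 in Lepr-Cre (SE 0.44, edgeR adjusted p = 0.0298), -2.13 in KO/FL (SE 0.46, 0.003) and -2.98 in FL/FL mice (SE 0.47, 0.000144). The Lepr-Cre call was lost without PreCFU-E A or B or CFU-E B or C (0.0943 to 0.130) and with limma on the deposited RPKM (0.0619 to 0.252). The KO/FL call was lost with limma on log2(RPKM + 1) without a filter (0.0726, where the range over 14 alternatives was 4.78e-11 to 0.0726). Hk2 values in that RPKM table did not exceed 0.355, below the pseudocount of 1. The Hk2 step did not differ past the threshold between Lepr-Cre and FL/FL mice, with a difference of 1.34 (SE 0.63, unadjusted p = 0.0492, edgeR adjusted p = 0.61).

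Hk1 changed less. It had 838, 1014 and 788 CPM in Lepr-Cre CFU-E against 914, 997 and 892 CPM in Lepr-Cre PreCFU-E. In KO/FL mice it had 787, 778 and 745 CPM in CFU-E against 989.7, 1026 and 795 CPM in PreCFU-E. FL/FL mice had 737, 799 and 761 CPM in CFU-E against 927, 1108 and 899 CPM in PreCFU-E. The stages overlapped in Lepr-Cre mice and were apart in KO/FL and FL/FL mice. Hk1 did not pass the test in Lepr-Cre (-0.09, SE 0.11, edgeR adjusted p = 0.741) or KO/FL mice (-0.28, SE 0.11, 0.0849) but did in FL/FL mice (-0.35, SE 0.11, 0.0224). The FL/FL call was lost without PreCFU-E B (0.157) or CFU-E A (0.0643). Hk1 passed in KO/FL mice with the mouse block (-0.27, 0.00838, within 0.00838 to 0.322 over 14 alternatives) and without PreCFU-E C (0.0164). Hk1 took 97.8% to 99.6% of hexokinase counts per kb in CFU-E and 92.2% to 96.8% in PreCFU-E. The log2 ratio of Hk1 to Hk2 counts was higher in CFU-E in 9 of 9 mice, by a mean of 2.05 (SD 0.87, range 1.21 to 3.85, exact paired permutation p = 0.00391, adjusted 0.00391). By genotype the mean was 1.59 in Lepr-Cre, 1.79 in KO/FL and 2.75 in FL/FL mice, where mouse A gave the highest of the 9 values.

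Phosphofructokinase commits glucose to glycolysis, and its subunits of the muscle (Pfkm), liver (Pfkl) and platelet (Pfkp) type combine into tetramers. Pfkm lies at chr15:98092589-98132451 (plus strand), Pfkl at chr10:77986947-78010083 and Pfkp at chr13:6579768-6648777 (both minus strand). The sequence at the most upstream RefSeq start of Pfkm is shown since Pfkm is the gene of the 10 that changed both with stage and with genotype.
Pfkm upstream start, chr15:98092339-98092638 (+): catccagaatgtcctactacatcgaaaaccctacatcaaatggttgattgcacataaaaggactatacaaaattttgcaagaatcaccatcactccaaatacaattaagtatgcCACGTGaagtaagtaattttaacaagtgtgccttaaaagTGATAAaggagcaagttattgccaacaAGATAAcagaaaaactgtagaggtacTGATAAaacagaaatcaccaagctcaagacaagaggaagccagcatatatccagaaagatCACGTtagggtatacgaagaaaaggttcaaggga
It holds 3 GATA words and 3 hypoxia-response words, a pair of which overlap in CACGTG, and no CACCC word. RefSeq lists 3 further Pfkm starts downstream, not shown. In order, their sequences hold 2, 1 and 0 GATA words, 1, 1 and 4 CACCC words and 2, 1 and 0 hypoxia-response words. Which start was used was not measured. Overlapping genes, Senp1 and Gm26513, cover 10.7% of Pfkm's exon bases.

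Pfkm rose in CFU-E while Pfkp fell. Pfkm had 298, 275 and 284 CPM in Lepr-Cre CFU-E against 233, 229 and 224 CPM in Lepr-Cre PreCFU-E. In KO/FL mice it had 242, 245 and 273 CPM in CFU-E against 181, 129 and 189.7 CPM in PreCFU-E. In FL/FL mice it had 228, 247 and 248 CPM in CFU-E against 156, 157 and 152 CPM in PreCFU-E. Within each genotype the stages did not overlap, but Lepr-Cre PreCFU-E reached the lowest FL/FL CFU-E library. The log2 fold changes were 0.32 in Lepr-Cre (SE 0.11, edgeR adjusted p = 0.0714, not passed), 0.61 in KO/FL (SE 0.11, 0.000193) and 0.63 in FL/FL mice (SE 0.11, 8.29e-05). With the mouse block the Lepr-Cre value passed (0.32, adjusted p = 0.0105, within 0.0105 to 0.191 over 14 alternatives).

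Pfkp had 32.1, 28.4 and 14.6 CPM in Lepr-Cre CFU-E against 42.9, 43.9 and 37.5 CPM in Lepr-Cre PreCFU-E. In KO/FL mice it had 19.7, 20.4 and 11.3 CPM in CFU-E against 46.7, 42.5 and 31.9 CPM in PreCFU-E. In FL/FL mice it had 14.9, 13.3 and 13.997 CPM in CFU-E against 44.8, 47.2 and 38.4 CPM in PreCFU-E. The stages did not overlap within any genotype. The fall was -1.22 in KO/FL (SE 0.25, edgeR adjusted p = 0.000671) and -1.63 in FL/FL mice (SE 0.25, 1.39e-05), while the Lepr-Cre value of -0.72 did not pass (SE 0.24, 0.0669). It passed in Lepr-Cre mice with the mouse block (-0.78, 0.00668), with DESeq2 (0.0470), without the low-count filter (0.0326) and without CFU-E A (-0.95, 0.0253), within 0.00668 to 0.326 over 14 alternatives. The difference in the step between Lepr-Cre and FL/FL mice was 0.91 (SE 0.35, unadjusted p = 0.0136, edgeR adjusted p = 0.408).

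Pfkl moved least of the 3. It had 114 to 134 CPM in Lepr-Cre, 106 to 123 in KO/FL and 103 to 112 in FL/FL CFU-E. In PreCFU-E it had 125 to 152 CPM in Lepr-Cre, 125 to 128 in KO/FL and 98.4 to 141 in FL/FL mice. The stages overlapped in Lepr-Cre and FL/FL mice, and no genotype passed the test (log2 fold change -0.18, -0.11 and -0.22 in Lepr-Cre, KO/FL and FL/FL, edgeR adjusted p 0.469, 0.658 and 0.235). Without FL/FL PreCFU-E C the FL/FL value was -0.38 and passed (edgeR adjusted p = 0.0420, within 0.0420 to 0.602 over 14 alternatives). Pfkm took 78.8% to 82.2% of phosphofructokinase counts per kb in CFU-E and 63.7% to 75.7% in PreCFU-E. Pfkl took 16.8% to 19.6% in CFU-E and 21.1% to 31.0% in PreCFU-E, and Pfkp 0.837% to 2.14% in CFU-E and 3.06% to 5.23% in PreCFU-E. None of these ranges overlapped between the stages. The log2 ratio of Pfkl to Pfkm was lower in CFU-E in 9 of 9 mice (mean -0.69, SD 0.24), that of Pfkl to Pfkp higher (1.06, SD 0.48) and that of Pfkm to Pfkp higher (1.75, SD 0.58), with an exact paired permutation p of 0.00391 each and an adjusted p of 0.00391. The Pfkm to Pfkp change averaged 1.12 in Lepr-Cre, 1.89 in KO/FL and 2.25 in FL/FL mice, and Lepr-Cre mice A (0.78) and B (0.89) had the smallest of the 9.

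**Figure D4:**
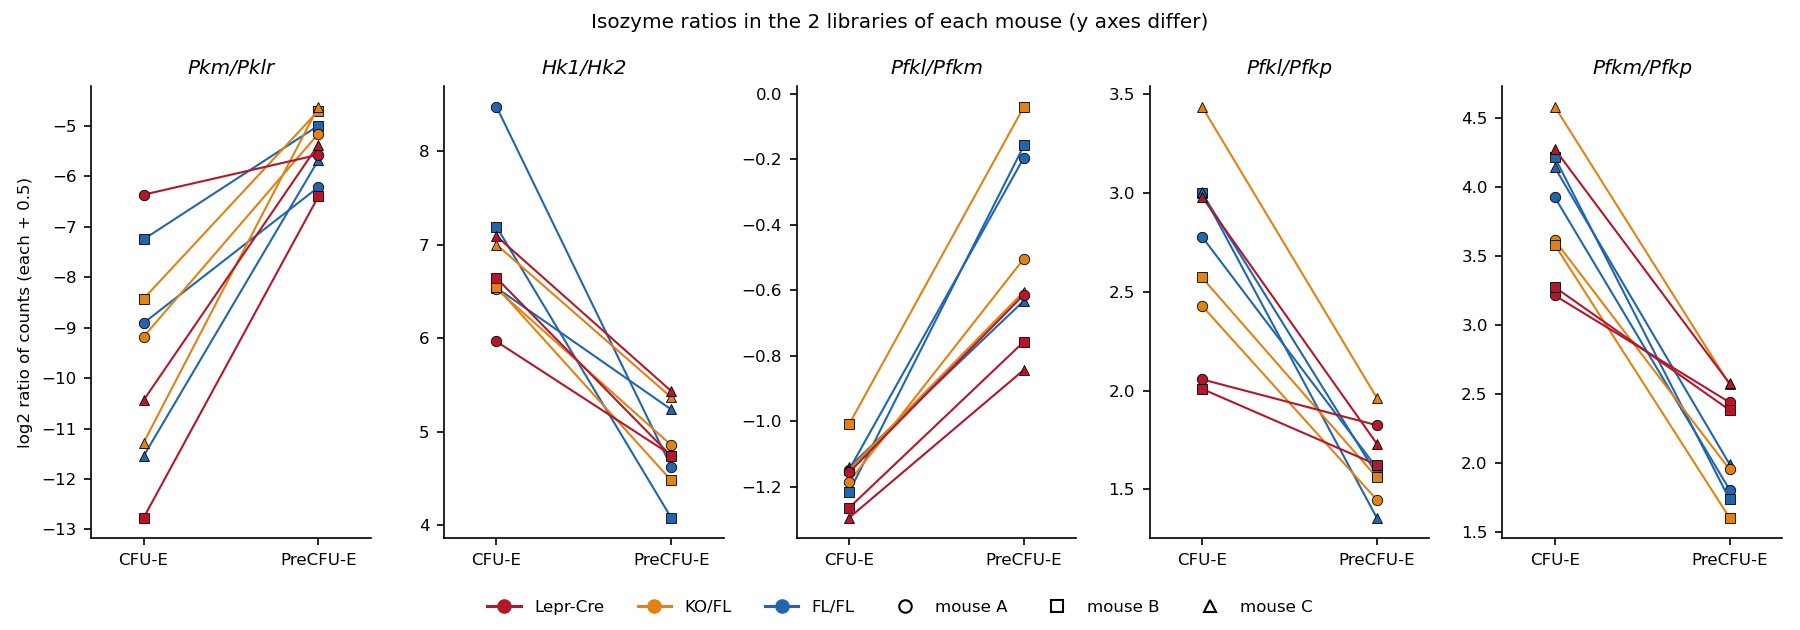
Log2 ratio of isozyme counts (each count plus 0.5) in the CFU-E and the PreCFU-E library of each mouse, joined by a line, coloured by genotype; the y axes differ between panels. Each of the 5 ratios moves in the same direction in all 9 mice, and the line of Lepr-Cre mouse A is the flattest for Pkm/Pklr (-0.79).

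Aldoa, which splits fructose 1,6-bisphosphate, Eno1, which makes phosphoenolpyruvate, and Ldha, which turns pyruvate into lactate, were all lower in FL/FL CFU-E. Aldoa had 190.2, 231 and 258 CPM in FL/FL CFU-E against 301, 310.4 and 292 CPM in FL/FL PreCFU-E, without overlap (-0.41, SE 0.10, edgeR adjusted p = 0.00498). Eno1 had 42.1, 43.5 and 50.7 CPM in FL/FL CFU-E against 72.0, 63.1 and 67.2 CPM in FL/FL PreCFU-E, without overlap (-0.57, SE 0.15, 0.00838). Ldha had 384, 399.7 and 531 CPM in FL/FL CFU-E against 536, 613 and 577 CPM in FL/FL PreCFU-E, apart by a small margin (-0.39, SE 0.12, 0.0161). These calls depended on single libraries: without FL/FL CFU-E A the Aldoa (0.0583) and Ldha (0.107) calls were lost. Ldha was also lost without PreCFU-E B (0.0844) or CFU-E B (0.118), and Eno1 without CFU-E B (0.0506). In KO/FL mice none of the 3 passed (Aldoa -0.29, Eno1 -0.32 and Ldha -0.19, edgeR adjusted p 0.0576, 0.169 and 0.298), though Aldoa passed with the mouse block (-0.29, 0.0159), with DESeq2 (0.0306), with DESeq2's size factors in edgeR (0.0443) and with limma on RPKM (0.0291 to 0.0423), within 0.0159 to 0.267 over 14 alternatives. In Lepr-Cre mice Eno1 passed (-0.48, SE 0.15, edgeR adjusted p = 0.0479), with 60.3, 48.6 and 68.0 CPM in CFU-E against 81.2, 76.7 and 89.7 CPM in PreCFU-E. That call was lost on leaving out any of PreCFU-E A, B or C or CFU-E A or B (0.0718 to 0.250), without the low-count filter (0.0704), with limma on log2(RPKM + 1) without a filter (0.0641) and with those 6 libraries alone (0.0890), and held with the mouse block (0.0130). Aldoa and Ldha values in Lepr-Cre mice were -0.12 each, and neither passed (edgeR adjusted p 0.586 and 0.62).

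The genotypes were compared within each cell type, and Pfkm gave the one call among the 10 genes. In PreCFU-E, Lepr-Cre against FL/FL mice had 1 of 10 genes called, beside 6.13% of 10309 tested genes. These genotypes differ both in the null Scf allele and in Lepr-Cre, which this comparison cannot tell apart. Pfkm averaged 228 ± 4.49 CPM in Lepr-Cre PreCFU-E and 155 ± 2.46 CPM in FL/FL PreCFU-E (SD, n = 3 each), 1.48-fold higher (log2 fold change 0.56, SE 0.12, edgeR adjusted p = 0.00656). All 3 Lepr-Cre libraries lay above all 3 FL/FL libraries, and the call held without any single library. With limma on the deposited RPKM it was lost (0.47 to 0.50, adjusted p 0.106 to 0.176, within 1.56e-05 to 0.176 over 14 alternatives). That test called 152 to 267 genes here, against 632 with edgeR. Late erythroblast markers moved with it: the 8 genes summed to 27.1 to 46.2 CPM in Lepr-Cre PreCFU-E and 9.31 to 12.97 CPM in FL/FL PreCFU-E, and their part in the Pfkm difference was not tested.

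Against KO/FL mice, Lepr-Cre PreCFU-E had 0 of 10 genes called, beside 2.18% of all tested genes, and Pfkm and Pklr had an unadjusted p under 0.05, as had 1424 of all tested genes. Pfkm again had the smallest p, with a log2 fold change of 0.46 (SE 0.12, edgeR adjusted p = 0.0511) and KO/FL PreCFU-E at 167 ± 32.7 CPM (SD, n = 3). The 2 groups did not overlap. It passed with DESeq2 (0.0305), without the low-count filter (0.00949), with all 18 libraries in the fit (0.0232) and without KO/FL PreCFU-E C (0.57, 0.0243), within 0.000581 to 0.378 over 14 alternatives. Pklr was next (0.27, SE 0.10, unadjusted p = 0.016, edgeR adjusted p = 0.217). It passed with the mouse letter as a block (edgeR adjusted p = 0.0147), and over the 14 alternatives its adjusted p was 0.0147 to 0.555. KO/FL against FL/FL PreCFU-E had 0 of 10 genes called, beside 0% of all tested genes. In that comparison 350 genes and none of the 10 had an unadjusted p under 0.05, and DESeq2 called 5 genes. Pfkm in PreCFU-E thus ran from Lepr-Cre (228) through KO/FL (167) to FL/FL (155), where KO/FL and FL/FL overlapped. Late erythroblast markers also differed between Lepr-Cre (27.1 to 46.2 CPM) and KO/FL PreCFU-E (6.33 to 14.4 CPM). Their part in the Pfkm and Pklr values over KO/FL was not tested.

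In CFU-E, Lepr-Cre against FL/FL mice had 0 of 10 genes called, beside 4.83% of 10192 tested genes, but all 10 log2 fold changes were positive. Their median was 0.33, against 0.00 over all tested genes, and 4 of the 10 had an unadjusted p under 0.05, as had 1973 of all tested genes. The signs of Pklr and Pkm were not stable: Pkm was at -3.11 without Lepr-Cre CFU-E A and -0.05 without FL/FL CFU-E C, and Pklr between -0.04 and 0.06 with 1 library left out. Ldha came closest, with 596, 523 and 606 CPM in Lepr-Cre CFU-E against 384, 399.7 and 531 CPM in FL/FL CFU-E (0.41, SE 0.13, edgeR adjusted p = 0.0691). The groups overlapped through Lepr-Cre B and FL/FL C. Ldha passed with DESeq2 (0.0365), without the low-count filter (0.0132), with all 18 libraries (0.0414) and without FL/FL CFU-E C (0.56, 0.00564), within 0.00419 to 0.330 over 14 alternatives. Pfkp was at 0.85 (SE 0.30, edgeR adjusted p = 0.104) and passed without Lepr-Cre CFU-E C (1.11, 0.027) and with all 18 libraries (0.0456), within 0.0270 to 0.422. Pfkm (0.26, SE 0.10) and Eno1 (0.39, SE 0.17) had unadjusted p of 0.0169 and 0.0313. Pfkm did not overlap between these groups, as the per-library values above show. Pklr hardly differed (0.01, SE 0.10), and Pkm could not be resolved (0.51, SE 1.26). Late erythroblast markers summed to 134 to 217 CPM in Lepr-Cre CFU-E and 131 to 170.4 CPM in FL/FL CFU-E. B, T and NK cell markers were apart, at 10.98, 6.91 and 2.63 CPM in Lepr-Cre CFU-E (mice A, B and C) against 2.34, 2.46 and 0.470 CPM in FL/FL CFU-E, with 2 to 6 of the 7 genes at 0 in Lepr-Cre and 5 to 6 in FL/FL CFU-E. The T cell gene Cd3e was at 0 in all 6 libraries. Lepr-Cre CFU-E A, the highest of them, was also the CFU-E library with the most Pkm, Pfkp, Hk2, Pfkl and Pfkm and the least Pklr. The part of either marker list was not tested.

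**Figure D5:**
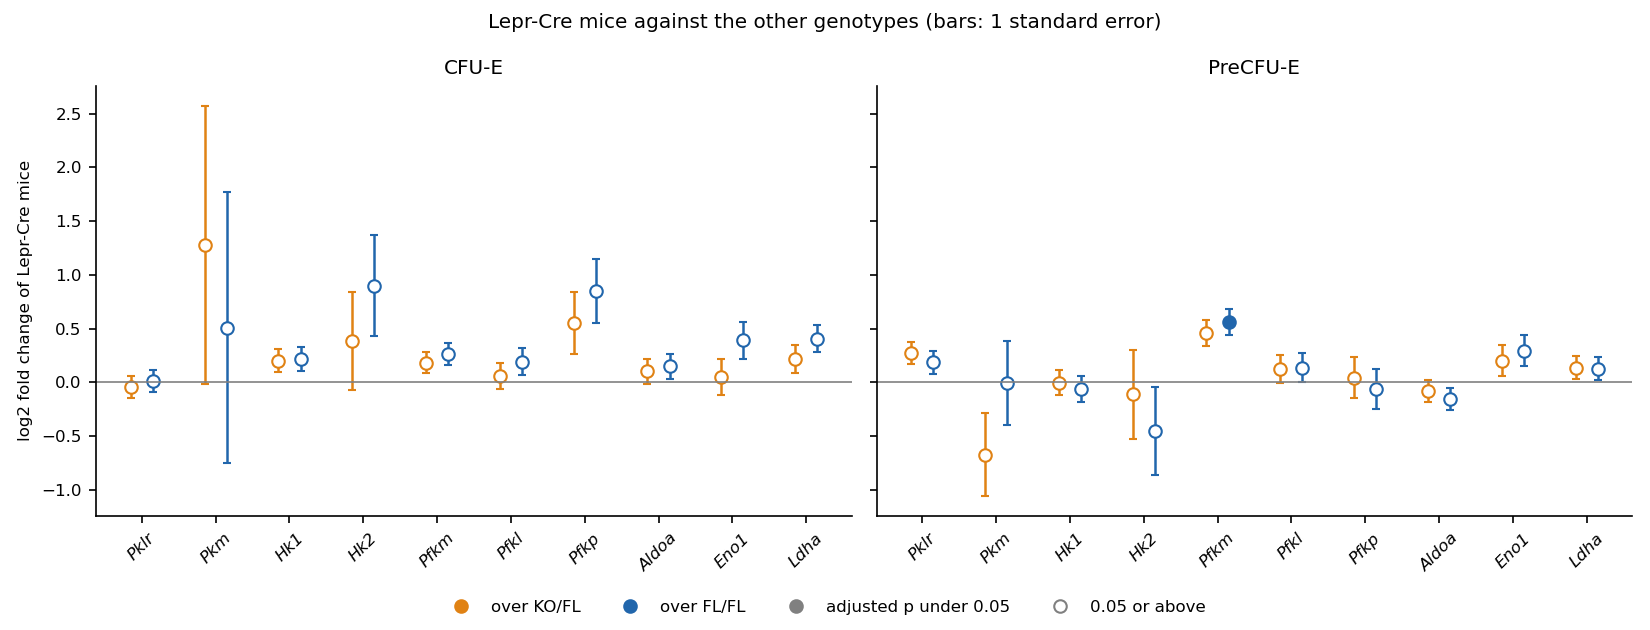
Log2 fold change of Lepr-Cre mice over KO/FL mice and over FL/FL mice in CFU-E (left) and PreCFU-E (right), with bars of 1 standard error and filled points for an edgeR adjusted p under 0.05. Pfkm in PreCFU-E over FL/FL is the only filled point (0.56), and all 10 values over FL/FL in CFU-E lie above 0, of which those of Pklr and Pkm changed sign with some libraries left out.

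Lepr-Cre against KO/FL CFU-E had 0 of 10 genes called, beside 1.01% of all tested genes, and none of the 10 had an unadjusted p under 0.05. Of these values 9 were positive, with a median of 0.19 and 0.01 over all tested genes. KO/FL against FL/FL CFU-E had 0 of 10 genes called, beside 0% of all tested genes. Here too 9 values were positive, with a median of 0.11 and 0.00 over all tested genes, so positive values over FL/FL were not particular to Lepr-Cre mice. There 210 genes and none of the 10 had an unadjusted p under 0.05, and DESeq2 called 1 gene. The comparisons of Lepr-Cre with KO/FL and with FL/FL share the Lepr-Cre libraries, so they are not separate evidence. Those of Lepr-Cre and of KO/FL with FL/FL likewise share the FL/FL libraries.

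Whether the step itself differed with genotype was tested as an interaction. In Lepr-Cre against FL/FL mice 0 of 10 genes were called, beside 0.354% of all tested genes, and Hk2 and Pfkp had an unadjusted p under 0.05, as had 877 of all tested genes. In Lepr-Cre against KO/FL mice 0 of 10 were called, beside 0% of all genes, where 569 genes had an unadjusted p under 0.05 and DESeq2 called 22. With the mouse block 198 genes were called against FL/FL and 61 against KO/FL mice, none of them among the 10. Among the 10, Pklr had such a p in that comparison (-0.32, SE 0.13, unadjusted p = 0.021, edgeR adjusted p = 0.809). The smaller number of calls in Lepr-Cre mice is therefore not shown to be a difference between genotypes for any of the 10 genes. Isozyme ratios were also compared between Lepr-Cre and FL/FL mice, 3 against 3, where an exact permutation test cannot go below 0.10. The log2 ratio of Pfkm to Pfkp in PreCFU-E was 2.46 ± 0.10 in Lepr-Cre and 1.84 ± 0.13 in FL/FL mice (SD, n = 3 each), without overlap (exact permutation p = 0.10). That of Pfkl to Pfkp was 1.73 ± 0.10 in Lepr-Cre and 1.51 ± 0.14 in FL/FL mice, also without overlap (exact permutation p = 0.10, n = 3 each). The other 3 ratios in PreCFU-E and all 5 in CFU-E overlapped.

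Of 15 other glycolytic enzyme genes, 7 passed the filter on low counts. Gpi1, the isomerase between hexokinase and phosphofructokinase, fell in each genotype. Its mean was 190.1 CPM in CFU-E and 247 CPM in PreCFU-E of Lepr-Cre mice (-0.38, SE 0.10, edgeR adjusted p = 0.0131), 166 CPM in CFU-E and 268 CPM in PreCFU-E of KO/FL mice (-0.69, SE 0.10, 4.93e-06) and 167 CPM in CFU-E and 273 CPM in PreCFU-E of FL/FL mice (-0.71, SE 0.10, 2.28e-06). Pgk1, phosphoglycerate kinase, fell in FL/FL mice (-0.60, SE 0.21, 0.0393). None of the 7 was higher in CFU-E in any genotype, nor called between Lepr-Cre and either other genotype at either stage. Bpgm, which makes the 2,3-bisphosphoglycerate of red cells, was at a median of 21.9 CPM in CFU-E and 16.02 CPM in PreCFU-E, and Gapdh at 179.6 CPM in CFU-E and 166 CPM in PreCFU-E. Neither was called.

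Of 8 glucose and lactate transport genes, 6 passed the filter on 18 libraries. Bsg, the partner protein of the lactate transporters, rose in Lepr-Cre (0.39, edgeR adjusted p = 0.0226), KO/FL (0.44, 0.00422) and FL/FL mice (0.46, 0.0023). Slc16a1, the lactate transporter MCT1, rose in FL/FL CFU-E (0.30, 0.0414). It was also higher in Lepr-Cre than in FL/FL mice, with 454 against 348 CPM in PreCFU-E (0.39, edgeR adjusted p = 0.0451) and 544 against 429.6 CPM in CFU-E (0.36, 0.0498). The glucose transporter gene Slc2a3 had a median of 89.2 CPM in CFU-E and 84.6 CPM in PreCFU-E and was not called. Slc2a1, the GLUT1 gene of human red cells, had medians of 0.180 CPM in CFU-E and 1.01 CPM in PreCFU-E.

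Of 13 flux regulators, 11 passed the filter. Pfkfb3, which makes the phosphofructokinase activator fructose 2,6-bisphosphate, fell in Lepr-Cre (-1.70, SE 0.32), KO/FL (-2.41, SE 0.34) and FL/FL mice (-1.87, SE 0.33), with edgeR adjusted p of 0.000813, 4.66e-06 and 9.23e-05. Pfkfb4, of the same family, rose in FL/FL CFU-E (1.47, SE 0.48, 0.0287). Pdk1, a kinase that inhibits pyruvate dehydrogenase, rose in KO/FL (0.81, SE 0.12) and FL/FL CFU-E (0.62, SE 0.12). It was higher in Lepr-Cre PreCFU-E than in KO/FL (128 against 80.9 CPM, edgeR adjusted p = 0.00531) and FL/FL PreCFU-E (128 against 91.0 CPM, 0.0209). Of 7 pentose phosphate pathway genes, all 7 passed the filter: Rpia and Rpe rose and Pgls fell in FL/FL CFU-E, Rpia rose in KO/FL CFU-E, and none was called in Lepr-Cre mice. G6pdx, the entry enzyme of that pathway, and Rpia were higher in Lepr-Cre than in FL/FL PreCFU-E (0.41 and 0.37, edgeR adjusted p 0.0497 and 0.0366).

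Of 5 splicing factors known to act on Pkm, 4 passed the filter and none was called in any comparison. Ptbp1 had a median of 666 CPM in CFU-E and 674 CPM in PreCFU-E. Of 6 transcription factors known to act on glycolytic genes, 5 passed. Myc fell in Lepr-Cre (344 CPM in CFU-E against 595 CPM in PreCFU-E, -0.79), KO/FL (329 against 619, -0.91) and FL/FL mice (317 against 622, -0.97). Klf1, an erythroid factor that binds CACCC words, rose in KO/FL (0.33, edgeR adjusted p = 0.0183) and FL/FL CFU-E (0.35, 0.00894). Hif1a, Arnt and Gata1 were not called.

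Over the 18 libraries, the genes whose centred log2 CPM was nearest to that of Pklr among 8845 candidates were Ociad1 (root mean square difference 0.09), Eif2ak1 (0.10), Mknk2 (0.11), Epn1 (0.11) and Rrm1 (0.11), against a spread of 0.26 (SD) of Pklr itself. Eif2ak1 encodes the haem-regulated kinase that slows translation in red cell precursors, and had 200.1 CPM in CFU-E and 139 CPM in PreCFU-E on average. For Pkm the nearest were Bcl2 (1.14), Atp2a3 (1.16), Atp10a (1.19), Rassf4 (1.21) and Stk10 (1.21), against a spread of 2.32. Bcl2, a survival gene, averaged 3.14 CPM in CFU-E and 23.3 CPM in PreCFU-E. These are descriptions over libraries that share mice and stages.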

How the data were processed

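Per the labels' protocols, c-Kit+ bone marrow cells were sorted by surface stain, 5000 to 10000 cells and 2 to 6 ng of total RNA per sample, and libraries were made with the SMARTer Stranded Pico v2 kit from RNA with an integrity number of at least 9.40. STAR 2.5.2b, HTSeq and the build mm10 are named in the submitters' processing notes; the sources used here do not state the strand setting or how reads that map to several genes were treated. The authors deposited a table of raw counts per gene and a table of RPKM.

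Counts were analysed with edgeR 4.0.16 (R 4.3.3): TMM, a filter with a minimum count of 10 and minimum total of 15, and a robust quasi-likelihood test. Steps and interactions were fitted on all 18 libraries in 6 groups and genotype comparisons on the 9 libraries of a cell type. P-values were adjusted by Benjamini-Hochberg over all tested genes at 0.05. Levels per kb used merged exon bases of GENCODE M21 (GRCm38), since the length divisor of the deposited RPKM did not follow gene length (r = 0.162 with exon bases across genes). RPKM served in alternatives with limma 3.58.1, with a pseudocount of 1 or 0.1. Isozyme ratios are log2 of counts plus 0.5, tested over 9 mice by exact sign flips. DESeq2 1.42.0, size factors, no filter, replicate blocks and leaving out each library were further alternatives. The scripts were tested on simulated data.

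Libraries of both cell types came from the same mouse, which is what pairs them; their deviations from the group means correlated at r = 0.0715 to 0.177 across genes. The members, the 6 pathway lists, the 7 marker lists and the tests were chosen with earlier results of these data known. The 10 members are all named, with list genes that passed the test, at most 3 per list and comparison. Depth limits Pkm in CFU-E most. The upper limit given for a count of 0 covers counting error only, while SDs and SEs include the spread between libraries.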

Additional observations from a re-analysis of the deposited data

How the results depend on the processing

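Over the single genes, 807 values under other settings kept their direction and side of the threshold, 29 moved past it, 12 fell short of it and 12 changed sign. With 1 library left out, 702 kept both, 8 moved past the threshold, 23 fell short of it and 47 changed sign. None of the values that changed sign had passed the test or passed it after the change. The number of the 10 genes called in the Lepr-Cre step (3) was 6 with the mouse as a replicate block, 1 with the 6 libraries alone and 1 with limma on log2(RPKM + 1) without a filter. For Lepr-Cre against FL/FL PreCFU-E (1) it was 0 with each of the 3 limma settings. For Lepr-Cre against KO/FL PreCFU-E (0) it was 1 with DESeq2, 1 without a filter, 1 with all 18 libraries and 2 (Pklr and Pfkm) with the mouse letter as a replicate block. For Lepr-Cre against FL/FL CFU-E (0) it was 1 with DESeq2, 1 without a filter, 1 (Ldha) with the letter block and 2 (Pfkp and Ldha) with all 18 libraries. Totals over all tested genes moved too. DESeq2 called 344 genes for Lepr-Cre against KO/FL PreCFU-E (225 with edgeR) and 768 for Lepr-Cre against FL/FL CFU-E (492 with edgeR). Where no total is given beside them, counts under other settings or with 1 library left out are no result about the 10 genes. The letters do not link mice of different genotypes in the labels, and libraries of 1 letter correlated at r = 0.0506 to 0.154. The blocks changed no calls besides those given here and in the results, and the cause of these changes was not tested. Leaving out 1 library gave 5 to 9 genes in the FL/FL step, 4 to 6 in KO/FL, 0 to 4 in Lepr-Cre, 1 to 1 and 0 to 1 for Lepr-Cre against FL/FL and KO/FL PreCFU-E, 0 to 1 for Lepr-Cre against FL/FL CFU-E, and 0 to 0 elsewhere. Leaving out 1 mouse gave mean ratio changes of -4.59 to -3.85 (Pkm/Pklr), 1.82 to 2.15 (Hk1/Hk2), -0.72 to -0.64 (Pfkl/Pfkm), 0.99 to 1.17 (Pfkl/Pfkp) and 1.66 to 1.87 (Pfkm/Pfkp). The Hk1/Hk2 change reversed to -0.058 on RPKM + 1 (exact permutation, adjusted p = 0.180), where all Hk2 values lie below the pseudocount. Over all tested genes, the 632 calls for Lepr-Cre against FL/FL PreCFU-E were 152 to 267 with limma and 1586 with the letter block, and 371 to 471 with 1 library left out. Values that changed sign under other settings were, for Pklr in Lepr-Cre against FL/FL CFU-E, -0.028 with limma on RPKM + 1 with or without a filter, -0.030 on RPKM + 0.1 and -0.00071 with all 18 libraries. For Pkm they were -0.058 in that comparison on RPKM + 0.1, 0.038 in Lepr-Cre against FL/FL PreCFU-E with the letter block, and, for the step in Lepr-Cre against FL/FL mice, -0.036 on RPKM + 0.1 and -0.16 with the mouse block. In Lepr-Cre against KO/FL PreCFU-E they were 0.0031 for Hk1 with the letter block and -0.00066 for Pfkp on RPKM + 1 with or without a filter, and in KO/FL against FL/FL PreCFU-E -0.00036 for Pfkl without a filter. Leaving out 1 library changed the sign of further values. For Lepr-Cre against FL/FL in PreCFU-E the range was -0.24 to 0.39 for Pkm, -0.13 to 0.035 for Hk1, -0.022 to 0.22 for Pfkl and -0.16 to 0.0067 for Pfkp. For Lepr-Cre against KO/FL in PreCFU-E the range was -0.11 to 0.065 for Hk1, -0.39 to 0.22 for Hk2 and -0.10 to 0.16 for Pfkp. For KO/FL against FL/FL in PreCFU-E the range was -0.14 to 0.048 for Hk1, -0.69 to 0.10 for Hk2, -0.14 to 0.10 for Pfkl, -0.0060 to 0.25 for Pfkm, -0.22 to 0.040 for Pfkp, -0.054 to 0.035 for Ldha and -0.019 to 0.20 for Eno1. For Lepr-Cre against FL/FL in CFU-E the range was -3.11 to 2.02 for Pkm and -0.035 to 0.056 for Pklr. For Lepr-Cre against KO/FL in CFU-E the range was -2.34 to 2.01 for Pkm, -0.026 to 0.095 for Pfkl and -0.073 to 0.16 for Eno1. For KO/FL against FL/FL in CFU-E the range was -1.51 to 0.75 for Pkm, -0.012 to 0.046 for Hk1 and -0.062 to 0.16 for Aldoa. For the step in Lepr-Cre against FL/FL mice the range was -3.11 to 2.11 for Pkm, -0.039 to 0.19 for Pfkl and -0.034 to 0.21 for Eno1. For the step in Lepr-Cre against KO/FL mice the range was -1.68 to 2.68 for Pkm and -0.015 to 0.16 for Ldha.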

Other observations

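Hk2 followed the mouse letter in PreCFU-E, a pattern picked after its values were seen and not tested. Mouse B was highest and mouse C lowest in each genotype: 37.2, 33.8 and 20.5 CPM for B, A and C in Lepr-Cre, 45.8, 34.0 and 19.2 CPM in KO/FL and 65.3, 37.4 and 23.7 CPM in FL/FL PreCFU-E. Mouse B was female and mice A and C male in each genotype. In CFU-E the order did not hold, with mouse C highest in FL/FL (8.12 CPM) and lowest in Lepr-Cre mice (5.70 CPM).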
